A study of Mus musculus with 11 samples.

Results

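The transcription factor p53 switches on a set of direct target genes when DNA is damaged or other stress stabilizes it, and the protein products of these genes stop the cell cycle, prepare the cell for apoptosis, support repair and limit p53 itself. The control of p53 acts mainly on the protein: Mdm2 marks it for degradation, and stress kinases release it. In stratified epithelia p53 limits the expansion of damaged basal keratinocytes, while its relative p63 maintains the basal layer and can bind many of the same sites. The 10 genes described here, Cdkn1a, Mdm2, Ccng1, Bax, Bbc3, Sesn1, Phlda3, Trp53inp1, Zmat3 and Eda2r, are well known direct targets of p53 that are not immediate early genes. They were found by gene name in the deposited table, and all 10 had values, among 19170 genes with values.

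The samples were gingival epithelium of 11 male langerin-DTR mice at 8 weeks of age, profiled by sequencing of polyadenylated RNA with 1 library per mouse. In these mice the langerin gene drives the receptor of diphtheria toxin (DT), and toxin therefore removes langerin-positive cells, chiefly the Langerhans cells (LCs) of the epithelium. PBS was injected in 5 mice and DT in 6 mice at the ages of 17, 24 and 31 days, so that every mouse carried the receptor and only the DT group received toxin. The study found by flow cytometry that LCs had returned to their usual frequency at the age of sampling, so the comparison is of epithelium in which LCs had been absent earlier in life. Whether this left a lasting p53 target response in the epithelium is the question that the 10 genes address. By gene set enrichment on these libraries, the paper reported the p53 and DNA repair pathways as raised after LC depletion. It reported mitotic spindle and other cell cycle sets as lowered. The counts given here are gene by gene and are not a set test, so the measures differ. Only their transcripts were measured, and p53 protein was not.

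Between 17509328 and 24325513 reads per mouse lay on the genes with values. The keratinocyte markers summed to between 2269390 and 2478940 normalized counts per mouse (10 of 10 genes with values). Markers of T cells, B cells, endothelium, muscle and salivary gland summed to at most 132 normalized counts in any mouse, those of fibroblasts to between 1109 and 1594, chiefly from Dcn, those of macrophages to between 135 and 362, and those of melanocytes and Schwann cells to between 9.81 and 195. The neutrophil list, led by S100a8 and S100a9, summed to between 613 and 3675. The LC markers summed to between 2116 and 4882 after PBS and between 1589 and 3010 after DT, and 0 genes of any marker list passed the test. On the first principal component PBS 3 and PBS 5 lay at 17.2 and 20.9, and the other 3 PBS mice at -11.9 to -13.0, with the DT mice between -9.09 and 10.5. These same PBS mice had the highest sums of LC markers, 4882 and 3957. Several comparisons of the groups are therefore also given without them. The spread within groups and the likeness of genes are given for all mice only. Because the tissue is a mixture, fewer cells of a type and less RNA per cell cannot be told apart.

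None of the 10 genes passed the threshold of adjusted p under 0.1 (limma on log2(normalized count + 1), Benjamini-Hochberg over 19170 genes), against 0.558% of all genes, or 107 genes, of which 60 were higher and 47 lower after DT. At an unadjusted p under 0.05, Mdm2, Sesn1 and Eda2r stood higher after DT and none stood lower, which is 3 of 10 against 11.5% of all genes in both directions 5.31% of all genes in the higher direction and 6.19% in the lower. The PBS and DT values overlapped for all 10 genes, whereas 1.65% of all genes had groups that did not overlap. The log2 differences, DT minus PBS, lay between -0.11 and 0.36 with a median of 0.06, compared with a median of -0.01 over all genes. Of the 10 differences 6 were above 0 and 4 below. The 95% confidence intervals, as folds of DT over PBS, had upper limits from 1.02 to 1.64 and lower limits from 0.786 to 1.06.

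**Figure D1:**
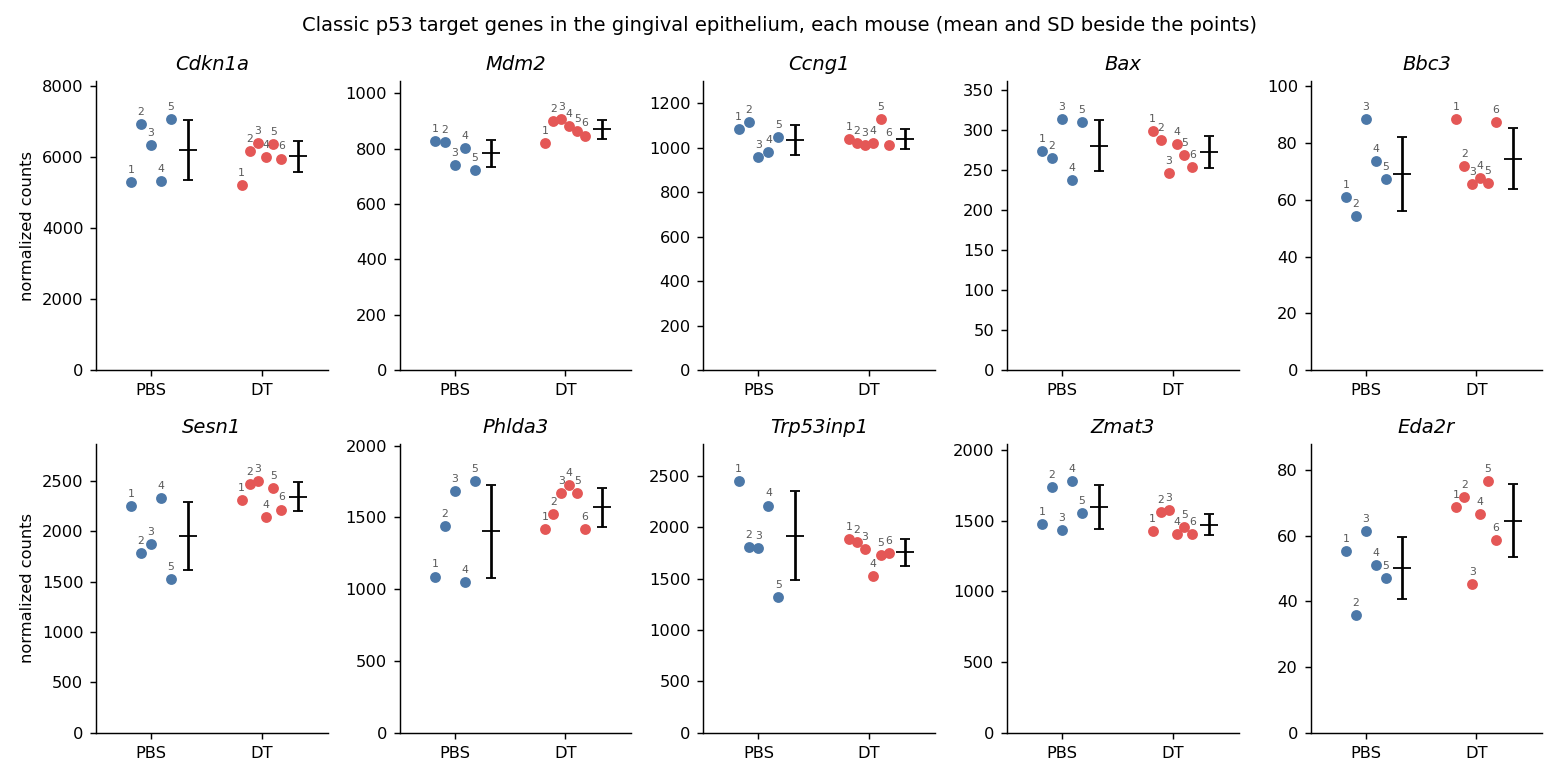
Normalized counts of the 10 classic p53 target genes (vertical axes from 0) in each PBS mouse (blue, 5 mice) and DT mouse (red, 6 mice), with the mouse number above each point and the group mean and SD as black bars. The groups overlap in all 10 genes, and the PBS points spread more widely than the DT points for Sesn1, Phlda3 and Trp53inp1.

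Levels of the 10 genes differed far more from each other than between the groups. Per kilobase of exon in the PBS mice, Cdkn1a stood first at 1743 ± 239 normalized counts per kilobase (SD, n = 5), followed by Phlda3 at 900 ± 209 and Sesn1 at 490 ± 84.5. Trp53inp1 at 296 ± 66.7 and Ccng1 at 295 ± 19.0 did not differ beyond their spread. Bax at 178 ± 20.2, Mdm2 at 154 ± 9.70 and Zmat3 at 139 ± 13.5 followed, and neighbours in this order overlapped within 1 SD. Bbc3 at 32.5 ± 6.15 and Eda2r at 8.52 ± 1.62 were the lowest. After DT the order was the same except that Ccng1 stood above Trp53inp1, at 296 ± 12.9 against 271 ± 19.8 (SD, n = 6). The paper's methods cite the QuantSeq guide for read processing, while its reporting summary names a KAPA stranded mRNA kit. Counts taken only at transcript ends would not scale with exon length, so this order depends on the kit used. By mean counts alone in the PBS mice, Cdkn1a (6193) was followed by Sesn1 (1952), Trp53inp1 (1917), Zmat3 (1595) and Phlda3 (1403).

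p53 binds DNA at pairs of a short element of 10 bases, the p53 decamer, so the promoters of the 10 genes were searched for it. The windows ran from 250 bases before to 50 bases after the start of transcription (RefSeq, GRCm38.p6) and were found for 8 of the 10 genes, the exceptions being Trp53inp1 and Zmat3. The decamer reads the same on both strands and no other motif was searched. It was present in 5 of these 8 genes (62.5%), compared with 9.55% of the 27025 genes with a window. The stretches that hold it are shown to let the decamers be read and compared, 5′ to 3′ on the strand of the gene, with each decamer in capitals and 25 bases on either side.
Cdkn1a: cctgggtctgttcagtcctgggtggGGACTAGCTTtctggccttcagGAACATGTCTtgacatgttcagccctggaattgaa
Mdm2: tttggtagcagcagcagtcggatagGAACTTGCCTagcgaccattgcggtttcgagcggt
Ccng1: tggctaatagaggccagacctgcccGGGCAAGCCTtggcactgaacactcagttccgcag
Bax: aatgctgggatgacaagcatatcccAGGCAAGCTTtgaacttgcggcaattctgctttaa
Sesn1: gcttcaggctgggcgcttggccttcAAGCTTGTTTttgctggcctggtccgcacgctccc
They lie at chr17:29090881-29090962 (plus strand), chr10:117710910-117710969 (minus), chr11:40755437-40755496 (minus), chr7:45467065-45467124 (minus) and chr10:41887241-41887300 (plus). The Sesn1 stretch stands inside the longest Sesn1 gene model, at a later start. Cdkn1a has 2 windows, and its stretch lies just before the outermost start of its gene model. In that stretch, the 10 bases right after the later capital decamer miss the searched pattern in their opening letter alone. They were not counted, so the pair counted for Cdkn1a is that of the 2 capital decamers. Cdkn1a holds 2 decamers at most 13 bases apart, as do 20 genes in all (0.074% of genes with a window). The other 4 hold a single decamer, and the windows of Bbc3, Phlda3 and Eda2r hold none. A match of letters is a description and not a measured binding site, and windows farther from the start were not read.

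Genes with and without the decamer were then set side by side. Of 1111 tested genes with a decamer 5 passed the threshold (0.45%), Gadd45a among them, and of 11798 genes without one 68 passed (0.576%), with median log2 differences of -0.0057 and -0.0036. Of the 8 tested genes with 2 decamers at most 13 bases apart, Cdkn1a among them, none passed.

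Cdkn1a and Ccng1 stand for cell cycle control. Cdkn1a (ENSMUSG00000023067, chromosome 17, 29090976 to 29100727 on GRCm38) encodes p21, the inhibitor of cyclin-dependent kinases through which p53 halts the cycle. PBS 1 to PBS 5 gave 5293, 6922, 6343, 5329 and 7076 normalized counts, and the DT mice ranged from 5223 through a median of 6082 to 6404. The highest value was in a PBS mouse and the lowest in a DT mouse, and 5 of the 6 DT mice lay inside the PBS range. The log2 difference was -0.03 ± 0.081 (SE), or 0.977-fold with a 95% confidence interval of 0.868 to 1.10 (adjusted p = 0.915). In the comparison of all mice, this unadjusted interval leaves out a rise of more than 1.10-fold. Without the PBS mice that stood apart on the first principal component, the log2 difference was 0.050 ± 0.082 (SE). The limit of 1.10-fold therefore holds for the comparison of all mice alone. A gene on the other strand overlaps Cdkn1a in the annotation, and whether strand was used in counting is not given in the sources used here.

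Ccng1 (ENSMUSG00000020326, chromosome 11, 40748552 to 40755311), cyclin G1, which recruits a phosphatase that acts on Mdm2, was among the steadiest of the 10. It had 1083, 1113, 957, 978 and 1046 normalized counts in the PBS mice and from 1012 through 1021 to 1129 after DT. A single DT mouse, DT 5, gave the highest value, and the other 5 lay within the PBS range. The difference was 1.00-fold with a 95% confidence interval of 0.928 to 1.09 (limma, adjusted p = 0.980).

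Mdm2 (ENSMUSG00000020184, chromosome 10, 117688875 to 117710758), the ubiquitin ligase that closes the negative feedback loop on p53, stood higher after DT by a small amount. It had 828, 825, 740, 801 and 722 normalized counts in the PBS mice, and from 820 through a median of 872 to 908 after DT. All 6 DT mice were above the PBS median and 5 of 6 were above the highest PBS mouse. The lowest DT mouse, DT 1, lay within the PBS range. The log2 difference was 0.15 ± 0.054 (SE), or 1.11-fold with a 95% confidence interval of 1.03 to 1.20 (adjusted p = 0.288, limma).

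Neither gene of stress and survival signalling passed the threshold. Sesn1 (ENSMUSG00000038332, chromosome 10, 41809935 to 41908424), sestrin 1, which lowers mTORC1 signalling under stress, had 2251, 1780, 1873, 2333 and 1525 normalized counts in the PBS mice. After DT it had from 2141 through 2371 to 2493. All 6 DT mice were above the PBS median, 3 of 6 were above the highest PBS mouse, and PBS 1 and PBS 4 fell among the DT values. The log2 difference was 0.28 ± 0.091 (SE), or 1.21-fold with a 95% confidence interval of 1.06 to 1.39 (adjusted p = 0.252, limma). An annotated gene on the same strand overlaps Sesn1, so reads in the overlap are uncertain.

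Phlda3 (ENSMUSG00000041801, chromosome 1, 135766119 to 135769136), which competes with Akt for membrane lipids and so restrains it, had 1089, 1439, 1685, 1052 and 1750 normalized counts in the PBS mice. After DT it had from 1419 through 1596 to 1728, and all 6 DT mice lay within the PBS range. PBS 1 and PBS 4 were the lowest of the 11 mice. The log2 difference was 0.19 ± 0.120 (SE), with a 95% confidence interval of -0.06 to 0.45 (limma, adjusted p = 0.573).

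The apoptosis genes stood close to their control levels. Bax (ENSMUSG00000003873, chromosome 7, 45461697 to 45466898), which forms pores in the outer mitochondrial membrane, had 274, 265, 314, 238 and 310 normalized counts in the PBS mice and from 246 through 276 to 298 after DT. All 6 DT mice lay within the PBS range, and the difference was 0.977-fold (0.863 to 1.11, limma, adjusted p = 0.916). An annotated gene on the same strand overlaps Bax. Bbc3 (ENSMUSG00000002083, chromosome 7, 16308393 to 16318205) encodes Puma, a BH3-only activator of apoptosis. It had 61.1, 54.4, 88.5, 73.8 and 67.2 normalized counts in the PBS mice and from 65.5 through 69.7 to 88.3 after DT, again inside the PBS range for all 6 mice. Its interval was wider, 1.08-fold with 0.877 to 1.34 (limma, adjusted p = 0.811), at 54 to 100 reads per mouse.

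Eda2r (ENSMUSG00000034457, chromosome X, 97333840 to 97377216), a receptor of the TNF receptor family that binds ectodysplasin A2, had the largest difference of the 10 and the fewest reads, 37 to 85 per mouse. It had 55.4, 36.0, 61.4, 51.0 and 47.2 normalized counts in the PBS mice and from 45.3 through 67.7 to 76.5 after DT. Of the DT mice 4 were above the highest PBS mouse, and DT 3 lay below the PBS median. The log2 difference was 0.36 ± 0.166 (SE), or 1.28-fold with a 95% confidence interval of 1.01 to 1.64 (adjusted p = 0.419, limma).

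The remaining pair stood lower after DT, within the error. Trp53inp1 (ENSMUSG00000028211, chromosome 4, 11156431 to 11174379), a stress protein that promotes apoptosis and autophagy, had 2444, 1810, 1798, 2210 and 1320 normalized counts in the PBS mice and from 1523 through 1767 to 1884 after DT. All 6 DT mice lay within the PBS range (0.934-fold, 0.786 to 1.11, limma, adjusted p = 0.802). Zmat3 (ENSMUSG00000027663, chromosome 3, 32334792 to 32366014), an RNA-binding zinc finger protein that acts on splicing downstream of p53, had 1474, 1736, 1432, 1777 and 1554 normalized counts in the PBS mice and from 1403 through 1444 to 1577 after DT. Of the DT mice 3 lay below the lowest PBS mouse and none above the highest. The difference was 0.926-fold with a 95% confidence interval of 0.844 to 1.02 (limma, adjusted p = 0.520).

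**Figure D2:**
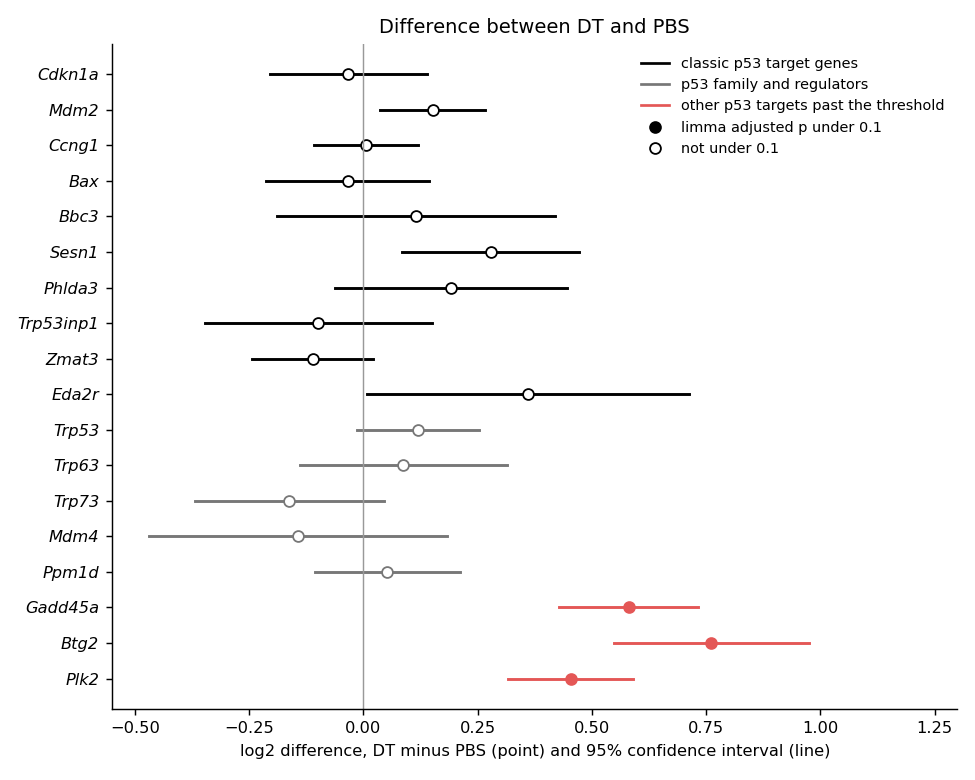
Log2 difference, DT minus PBS (horizontal axis), with its 95% confidence interval for the 10 classic p53 targets (black), 5 genes of the p53 family and its regulators (grey) and the 3 other p53 targets that passed the threshold (red); filled points have an adjusted p under 0.1. Intervals of 3 of the 10 classic targets, Mdm2, Sesn1 and Eda2r, lie above 0, and Gadd45a, Btg2 and Plk2 stand to the right of all 10 points.

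The PBS mice differed among themselves more than the DT mice did. The SD of the log2 values was larger in PBS than in DT for 10 of the 10 genes, compared with 69.3% of the 13477 genes that averaged 10 normalized counts or more. Highest over lowest PBS mouse was 1.85-fold for Trp53inp1, 1.66-fold for Phlda3 and 1.53-fold for Sesn1, against 1.24-fold, 1.22-fold and 1.16-fold among the DT mice. PBS 1 and PBS 4 combined low Cdkn1a and Phlda3 with high Sesn1 and Trp53inp1, and PBS 5 showed the opposite, with the highest Cdkn1a and Phlda3 and the lowest Sesn1, Trp53inp1 and Mdm2 of all mice. In the DT mice the same contrast was seen on a smaller scale between DT 1, with the highest Trp53inp1 and the lowest Phlda3 of its group, and DT 4, with the lowest Trp53inp1 and the highest Phlda3.

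**Figure D3:**
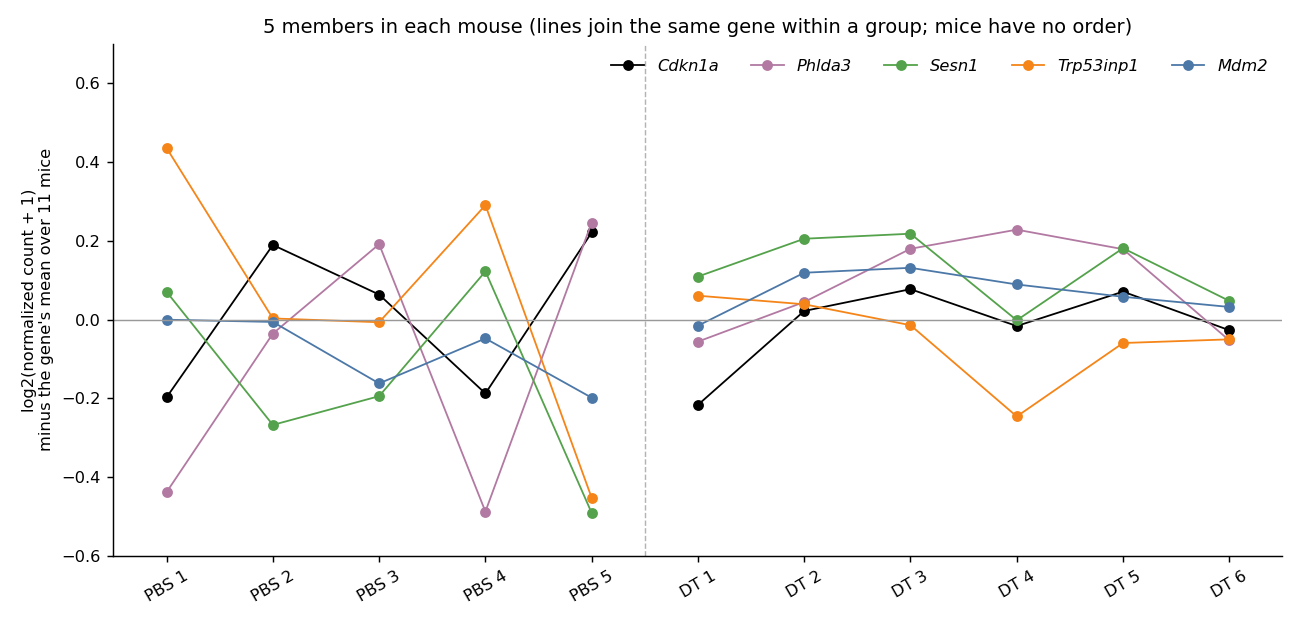
Log2(normalized count + 1) of 5 of the 10 genes in each mouse, less the mean of that gene over the 11 mice (vertical axis), with PBS mice left and DT mice right of the dashed line; the lines only join points of a gene, as mice have no order. Phlda3 and Trp53inp1 stand on opposite sides of 0 in PBS 1, PBS 4 and PBS 5, and the DT mice spread less.

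Likeness over the 11 mice was measured as Pearson's r of the log2 values, a description without a test that includes the difference between the groups. Among 13477 genes, the pattern of Cdkn1a was most like those of Lgi4 (0.92), Lingo3 (0.92) and Tuba8 (0.91), and that of Mdm2 most like those of Acap3 (0.90), Spag1 (0.89) and Lztr1 (0.88). None of these is among the 10. Within the 10, the likeness of Cdkn1a ran from -0.72 with Trp53inp1 to 0.72 with Phlda3, and that of Mdm2 from -0.52 with Bax to 0.79 with Sesn1.

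With PBS 3 and PBS 5 left out, an alternative chosen after their position was seen, 2 of the 10 genes passed the threshold, when 10.3% of all genes (1967) did. Phlda3 was then higher after DT (log2 difference 0.41 ± 0.092, adjusted p = 0.0209, limma), and Trp53inp1 was lower (-0.29 ± 0.083, adjusted p = 0.0557, limma), so the pair moved in opposite directions. In the same comparison the values of Mdm2 and Sesn1 were smaller, at 0.087 and 0.15, and Cdkn1a stood at 0.050. In none of the 11 fits that left out 1 mouse did any of the 10 pass, although the number of genes passing overall ranged from 27 without DT 5 to 259 without PBS 5.

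**Figure D4:**
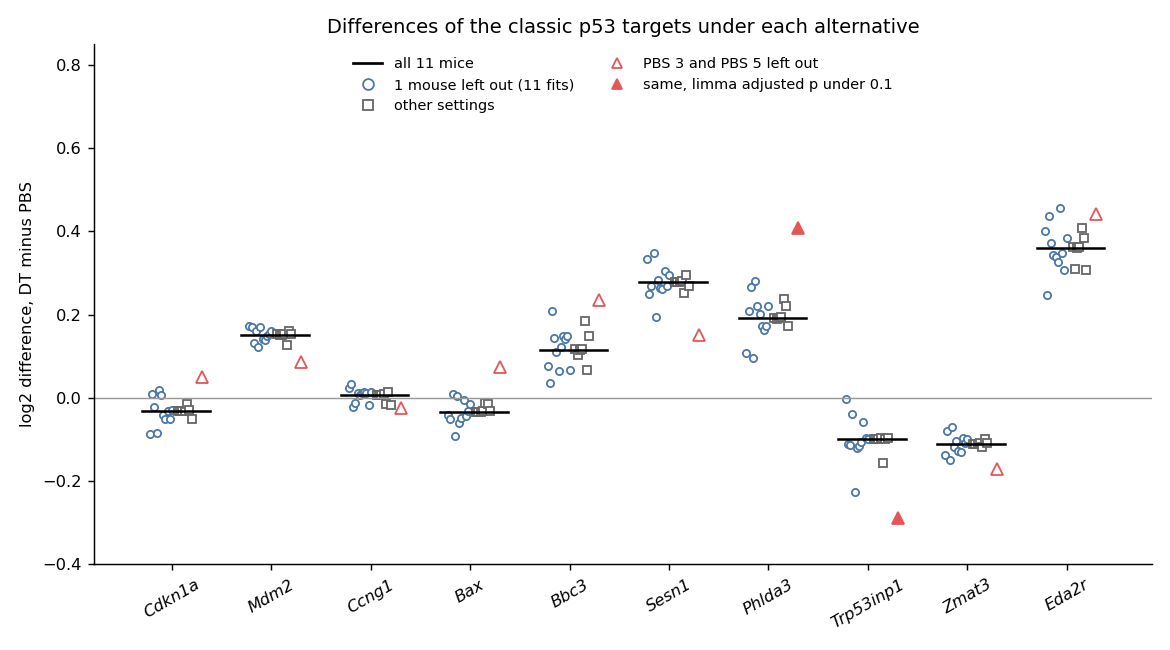
Log2 difference, DT minus PBS (vertical axis), of each of the 10 genes in the comparison of all 11 mice (black line), with each mouse left out (blue circles), under the other settings (grey squares) and with PBS 3 and PBS 5 left out (red triangles, filled where the adjusted p is under 0.1). Filled triangles appear only for Phlda3 (above 0) and Trp53inp1 (below 0), and the points of Cdkn1a, Ccng1 and Bax fall on both sides of 0.

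p53 itself and its regulators did not pass the test either. Of 24 regulators 0 passed, beside 0.558% of all genes, the median log2 difference was -0.01, and 11 were above 0. Trp53, the gene of p53, had 1158, 1200, 1368, 1193 and 1043 normalized counts in the PBS mice and from 1184 through 1306 to 1351 after DT, all within the PBS range. Its log2 difference was 0.12 ± 0.063 (SE, adjusted p = 0.491, limma). Trp63, the gene of p63, was far more abundant, at 7094 ± 1469 normalized counts in the PBS mice and 7426 ± 575 in the DT mice (SD, n = 5 and n = 6, log2 difference 0.09). Trp73 at -0.16, Mdm4, the partner of Mdm2 that blocks the activation domain of p53, at -0.14, and Ppm1d, the phosphatase that reverses p53 activation, at 0.05 had adjusted p values from 0.554 to 0.841 (limma). Mdm4 rests on the mice that stood apart: it had 950 and 804 normalized counts in PBS 3 and PBS 5, 1436, 1475 and 1648 in the other PBS mice, and from 880 to 1195 after DT. With PBS 3 and PBS 5 left out, 4 of 24 regulators passed, when 10.3% of all genes did, Mdm4 (-0.46, adjusted p = 0.00874) and Ep300 (-0.25, adjusted p = 0.0513) lower and Rpl5 (0.38) and Rpl11 (0.28) higher (limma). An unadjusted p under 0.05 was found for 4 of 24 regulators, beside 11.5% of all genes (limma). Rpl5 and Rpl11, ribosomal proteins that can bind and inhibit Mdm2, stood higher (0.34 and 0.18). Hipk2, a kinase of p53, and Ep300, its acetylase, stood lower (-0.22 and -0.21). These 4 were singled out after their values were seen. Rpl5 and Rpl11 passed without PBS 5, when 2 of 24 were called and 1.35% of all genes.

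In a wider list of 57 direct p53 targets, of which 56 had values, 3 rose and 0 fell, against 0.313% and 0.245% of all genes. All 3 belong to the 9 genes of growth arrest. Gadd45a, a stress sensor that binds Pcna and kinases, went from 313 ± 26.0 to 468 ± 34.2 normalized counts (log2 difference 0.58, adjusted p = 0.00477). Btg2, an antiproliferative partner of the mRNA deadenylation complex, went from 2787 ± 540 to 4684 ± 506 (0.76, adjusted p = 0.00815), and Plk2, a polo-like kinase of centriole duplication and stress, from 1315 ± 120 to 1800 ± 121 (0.45, adjusted p = 0.00815). Errors are SD with n = 5 and n = 6, and the tests are limma. In each of these 3 genes all 6 DT mice were above the highest PBS mouse, unlike any of the 10 classic targets. Separation was also complete for Plk3 and, with all DT mice below the lowest PBS mouse, for Aifm2 and Ptp4a3. The latter pair was listed under apoptosis, a rough grouping. This makes 6 of 56 genes fully separated in either direction, beside 1.65% of all genes. Aifm2 and Ptp4a3 did not pass the threshold. Plk3 missed the threshold (0.37, adjusted p = 0.1005, limma). With PBS 4 left out, when 170 of 19170 genes were called, the list had 5 calls, Plk3 and Ddit4 in addition.

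The other roles of the wider list gave 0 calls, beside 0.558% of all genes: 0 of 14 genes of apoptosis, 0 of 6 of DNA repair, 0 of 12 of metabolism and 0 of 15 of other functions. Their median log2 differences were -0.04, -0.02, 0.05 and -0.08, and the median of all 56 was 0.001. At an unadjusted p under 0.05 the whole list of 56 had 6 genes higher and 6 lower, beside 5.31% and 6.19% of all genes. The lower ones included 3 of the 14 genes listed under apoptosis, Aifm2, Ptp4a3 and Apaf1, with log2 differences of -0.31, -0.20 and -0.23. Of these, Apaf1 builds the apoptosome. With PBS 3 and PBS 5 left out, when 10.3% of all genes passed, the apoptosis genes still had 0 calls, repair had 1 (Ddb2, -0.44), metabolism had 2 (Gpx1, 0.42, and Ddit4, -0.33), the other functions had 1 (Notch1, -0.23), and the arrest genes had 5, Sfn and Plk3 in addition.

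p21 also acts through the DREAM complex, which represses cell cycle genes. Of 16 such genes 0 passed, beside 0.558% of all genes, and 15 were below 0, beside 10095 of all 19170, with a median of -0.11. An unadjusted p under 0.05 was found for 2 of 16, close to the 11.5% of all genes, the proliferation marker Mki67 (-0.31, adjusted p = 0.180, limma) and Foxm1, a transcription factor of mitotic genes (-0.16, adjusted p = 0.408, limma). Without PBS 3, when 126 of 19170 genes were called, Mki67 passed. With PBS 3 and PBS 5 left out, when 10.3% of all genes passed, 1 of 16 passed, Mki67 (-0.39). In that comparison Cdk1, Ccnb2, Cdc20, Plk1, Bub1b and Kif20a stood above 0, by 7.4e-05 to 0.14, and the other genes of the list below 0. The summed level of the 16 genes was between 13897 and 15716 normalized counts after PBS and between 12169 and 15529 after DT, so the groups overlapped.

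The immediate early genes, which respond within minutes to growth factors and stress, moved in these same mice. They were already known to have risen with DT in earlier results of these data when they were listed. Their counts therefore describe a known rise and are not a separate test. Of 25 such genes 16 rose and 0 fell, beside 0.313% and 0.245% of all genes, with a median log2 difference of 0.75. Fos, Jun and Atf3 rose by 1.70, 1.11 and 2.68 on the log2 scale (adjusted p = 0.00897, 0.00897 and 0.00926, limma). Their summed level was between 41867 and 87779 normalized counts after PBS and between 91904 and 139970 after DT. Btg2 is in this list as well as in that of p53 targets, and its part in the rise of the arrest genes was not tested. Gadd45a, Plk2 and Plk3 were placed in the p53 list alone, and whether they rose as part of the immediate early response was not tested either. PBS 4, the control mouse with the highest immediate early sum, had the highest Sesn1 of the PBS mice and the highest Zmat3 of all mice, high Trp53inp1, and low Cdkn1a and Phlda3. Among the PBS mice Sesn1 stood in the same order as the immediate early sum, from PBS 4 through PBS 1, PBS 3 and PBS 2 to PBS 5. This relation was picked out after the values were seen and was not tested. The DT mice did not keep it: Sesn1 was 2471 in DT 2, which had the lowest sum of its group, and 2215 in DT 6, which had the highest. DT 6, which had the highest sum of all mice, was neither the highest nor the lowest mouse for any of the 10 classic targets.

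**Figure D5:**
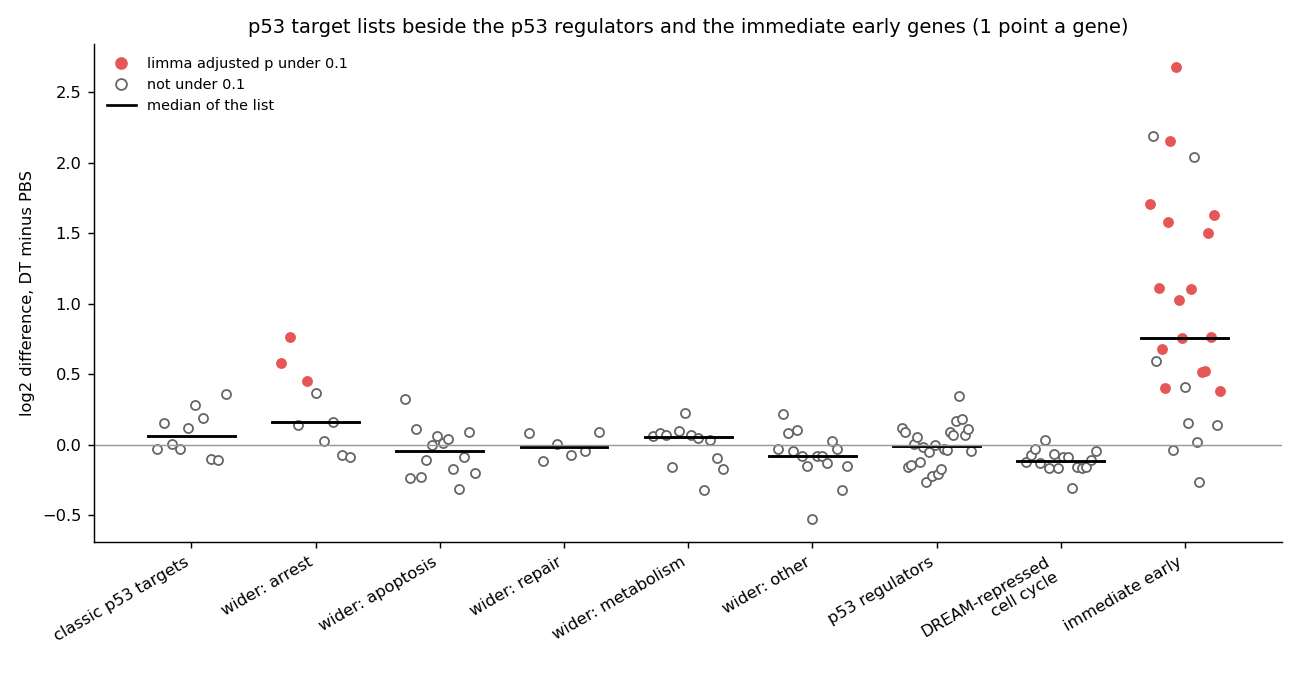
Log2 difference, DT minus PBS (vertical axis), of each gene (points) in the 10 classic p53 targets, the 5 roles of the wider p53 list, the p53 regulators, the cell cycle genes repressed through DREAM and the immediate early genes, with the median of each list as a black line and genes with an adjusted p under 0.1 filled in red. Filled points appear in the arrest genes (3 of 9) and the immediate early genes (16 of 25), and in none of the other 7 lists.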

How the data were processed

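RNA of the gingival epithelium was sequenced in 11 mice, 5 given PBS and 6 given DT. The authors trimmed reads with cutadapt, aligned them with TopHat, counted them per gene with htseq-count and scaled them with DESeq2. The authors' methods give GRCm38, whereas the authors' processing notes in the labels give GRCm39 (with cutadapt 2.10, TopHat2 2.1.1, HTSeq 2.01 and DESeq2 1.36.0), and the table holds no coordinates. The values deposited by the authors are normalized counts, for 19170 of 55414 listed genes. The others, 36244, carry no value. In each mouse 100% of the low nonzero values checked were whole multiples of a single read within 0.05 of a read. Higher values were not checked. All values were rounded to whole reads, which gave the depth per mouse. A gene at few reads, such as Eda2r, is measured less precisely.

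The groups were compared on log2(normalized count + 1) with the trended moderated test of limma (version 3.58.1, R version 4.3.3), no covariate, Benjamini-Hochberg adjustment over all genes with values and a threshold of 0.1. Folds are 2 to the power of the difference on that scale, and understate changes of low genes. The titles give a group and a number but name no mouse. Each library was taken as 1 mouse, from these numbers and the paper's group sizes. The procedure was tested on simulated data. Positions and exon lengths came from GENCODE release 21 on GRCm38, promoter sequences from RefSeq on GRCm38.p6. Levels per kilobase divide by the union of exons, which assumes reads from the whole transcript.

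The 10 genes and all lists were chosen with earlier results of these data known, so their counts are descriptions. The genes named are the 10, 5 p53 family genes and regulators, each gene of the p53, regulator and DREAM lists past the threshold, Fos, Jun, Atf3, and the 3 genes most like Cdkn1a and Mdm2, and others are said to be chosen after their values were seen: the genes at an unadjusted p under 0.05, Plk3 and Ddit4. Alternatives were other pseudocounts (0.5 and 10), a filter at a mean of 10, TMM scaling, array weights, a replicate block and leaving out each mouse.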

Additional observations from a re-analysis of the deposited data

Results flagged for a closer look

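In the DT group, Ccng1 of DT 5 stood apart from the other 5 mice: its 1129 normalized counts left a gap to the nearest mouse of 0.781 of the whole range of the group, above Dixon's 95% critical value for 6 samples. Across the 10 genes, 20 groups were examined in this way, and chance flags about 1 in 20 groups. Without DT 5 the log2 difference of Ccng1 was -0.018, in place of 0.0064.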

How the results depend on the processing

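Of the 10 p53 targets, 0 passed under each alternative listed at the outset and run, and 2 with PBS 3 and PBS 5 left out (Phlda3 0.41 and Trp53inp1 -0.29 on the log2 scale). The direction of Mdm2, Bbc3, Sesn1, Phlda3, Trp53inp1, Zmat3 and Eda2r was kept in all 19 alternatives. The lowest adjusted p of Sesn1 over them was 0.1005. Differences near 0 changed sign: Cdkn1a over single mice left out ran from -0.087 to 0.018 and was 0.050 without PBS 3 and PBS 5, Ccng1 ran from -0.022 to 0.033, was -0.015 with array weights, -0.018 with the replicate block that gives PBS 5 the number of DT 6, and -0.025 without both mice, and Bax ran from -0.091 to 0.0088 and was 0.074 without both. Over all genes the calls were 189 with array weights, 35 with the replicate block, 27 to 259 with a mouse left out and 1967 without PBS 3 and PBS 5. The wider p53 list had 5 calls with array weights, 3 to 5 with a mouse left out and 9 without both mice. The regulators had 1, 0 to 2 and 4, and the DREAM list had 0 to 1 and, without both mice, 1. The immediate early genes had 10 calls with the replicate block and 9 to 18 with a mouse left out. The causes were not tested. The block used the number in the sample title. Deviations of same-numbered mice from their group means had correlations of -0.233 to 0.324. Whether these mice share more than a number is not given in the labels and was not tested. The title of PBS 5 also holds a 6 in its library tag. With PBS 5 given the number of DT 6 (correlation -0.0477 in place of 0.324), a pairing tried after the data were seen, the block left 0 calls over all genes, 0 in the wider p53 list and 0 among the immediate early genes (limma, 1404 genes at an unadjusted p under 0.05). The count tests of edgeR and DESeq2 on recovered reads, listed at the outset, were not run. Recovered reads served for depth alone. At 37 to 100 reads, Eda2r and Bbc3 leave the widest intervals.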
